A study of Mus musculus with 17 samples.

Results

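The 9 genes described here, *Ezh1*, *Ezh2*, *Eed*, *Suz12*, *Jarid2*, *Mtf2*, *Cbx2*, *Cbx7* and *Cbx8*, encode subunits of the 2 Polycomb repressive complexes, PRC1 and PRC2. They were picked by gene name from a table of 54532 mouse genes, and all 9 were among the 21871 genes that reached 1 TPM in 2 or more libraries and were tested. TPM, a measure of transcript abundance, is a read count divided by the length of the gene and scaled to the same total in each library. Levels can thus be compared between genes, while comparisons between libraries also depend on the scaling, and other scalings are given below.

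The libraries were made from R1/E mouse embryonic stem cells, either wild-type or *Usb1* knockout, and sequenced by bulk RNA-seq to compare self-renewal with differentiation. *Usb1* encodes the exonuclease that trims the oligo(U) tail of U6 snRNA. The knockout was made by CRISPR/Cas9 and is represented by the single line KO-1, in which the lack of *Usb1* and other differences of that line cannot be told apart. Cells were harvested at day 0, before retinoic acid (RA) was given, and at day 1 and day 3 of RA, a treatment that makes embryonic stem cells differentiate. There were 17 libraries, 2 for wild-type cells at day 0 and 3 for each further combination of genotype and day.

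PRC2 places methyl groups on lysine 27 of histone H3, and *Ezh1* and *Ezh2* are its alternative catalytic subunits. *Eed* and *Suz12* are needed for its activity, whereas *Jarid2* and *Mtf2* belong to alternative forms of the complex and help to bring it to its target genes. Canonical PRC1 binds the methylated histone through 1 of several CBX proteins. In embryonic stem cells both complexes occupy silent genes of developmental regulators, *Cbx7* is known as the main CBX subunit, and *Cbx2* and *Cbx8* are known from differentiated cells.

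Reads on genes, recovered from the TPM, numbered 15404379 to 17300186 per library. Wild-type replicate 1 at day 0 stood apart, since 239 of its genes had a single read, against 1352 in its partner and 1224 to 2467 in the other 15 libraries. It also had 17090 genes above 0, against 22314 in its partner and 21898 to 24900 in the other 15. Results that rest on it are therefore also given without it. *Usb1* was at 14.7 to 21.4 TPM in the 9 knockout libraries and at 32.0 to 56.9 TPM in the 8 wild-type libraries. Its transcript was lowered but present, with log2 changes of -1.20, -1.34 and -0.93 at day 0, 1 and 3. The summed level of 5 markers of pluripotent cells was 4784 to 4828 TPM in wild-type and 4631 to 5090 TPM in knockout cells at day 0. At day 3 this sum was 254 to 294 TPM in wild-type and 481 to 543 TPM in knockout cells, while 7 markers of extraembryonic endoderm summed to 1551 to 1863 TPM and 619 to 740 TPM. None of these markers was at 0 in day 3 libraries. The Y-linked genes *Uty*, *Ddx3y* and *Eif2s3y*, looked at after the values of *Uty* were seen, were listed at 0 in all 9 knockout libraries. In the 8 wild-type libraries they were at 12.5 to 15.2, 50.1 to 67.5 and 61.8 to 85.6 TPM. Every genotype comparison given here is therefore also one between cells without and with these transcripts, and their part in it was not tested. The library kit does not mark strand, and genes on the opposite strand share 1.54% to 6.93% of the exon length of *Ezh2*, *Eed*, *Suz12*, *Mtf2* and *Cbx7*, from which their reads cannot be told apart. Of 6 markers of fibroblast feeder cells, 4 were under 1 TPM at day 0 in both genotypes. At day 3, 2 were, and the 6 summed to 39.7 to 49.3 TPM in wild-type and 63.8 to 71.5 TPM in knockout cells. At day 3, 4 mesoderm markers summed to 28.3 to 38.4 TPM in wild-type and 66.5 to 77.0 TPM in knockout cells. For 5 neuroectoderm markers it was 88.1 to 95.6 TPM and 111 to 130 TPM.

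The levels of the 9 transcripts spanned a wide range. *Jarid2* was the highest and *Cbx8* the lowest by mean in each of the 6 groups. In wild-type cells at day 0, *Jarid2* was at 311 TPM, followed by *Eed* at 210.2 and *Mtf2* at 202 TPM, whose ranges overlapped. *Suz12* came next at 166 TPM, then *Cbx7* at 114, *Ezh2* at 101, *Cbx2* at 26.3, *Ezh1* at 8.28 and *Cbx8* at 0.676 TPM, with no overlap between neighbors. By day 3 the span had narrowed, with *Jarid2*, *Cbx7* and *Suz12* at 109, 104 and 94.9 TPM in wild-type cells. At that time, *Ezh2* and *Cbx2* at 46.1 and 44.9 TPM had overlapping ranges, as did *Ezh1* and *Cbx8* at 16.9 and 15.1 TPM.

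**Figure D1:**
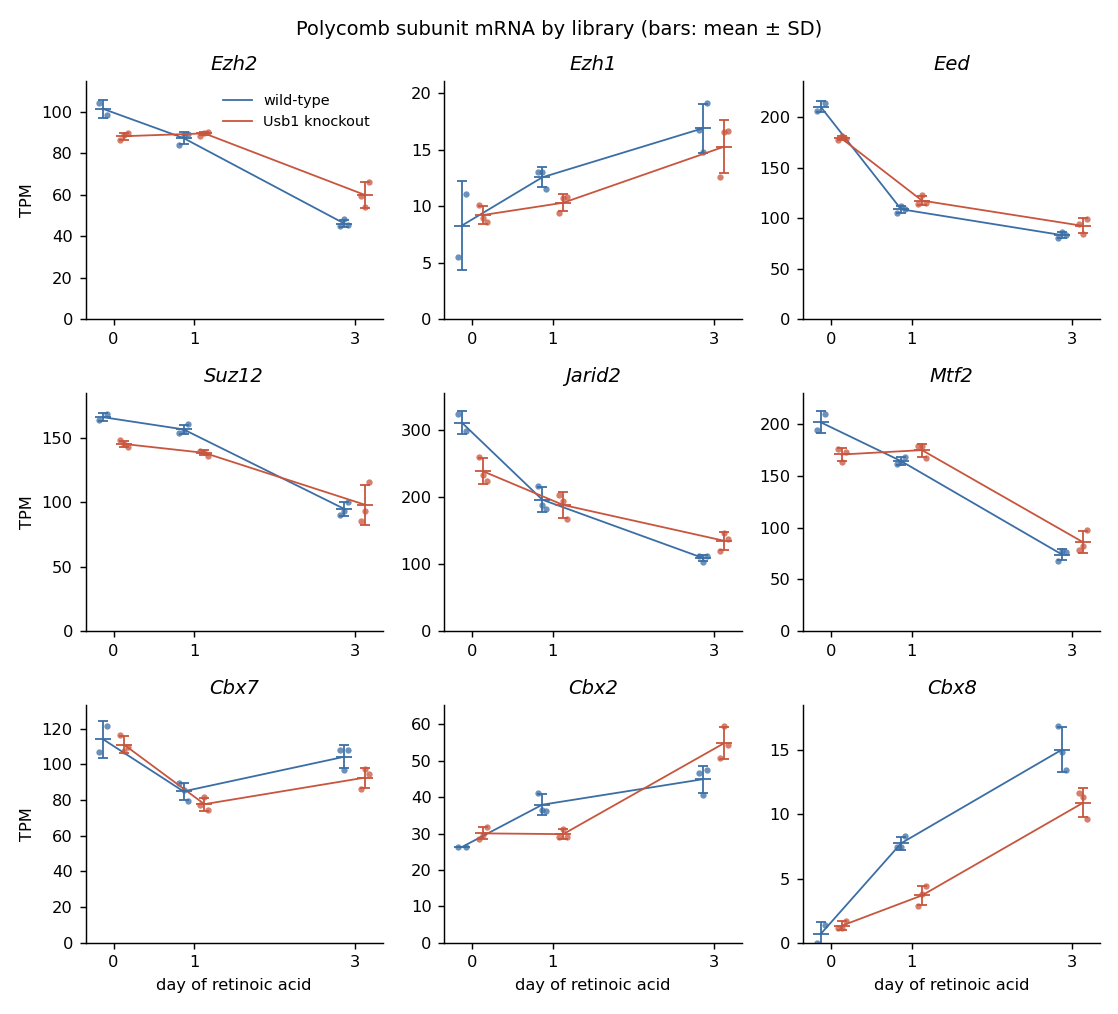
Level of each of the 9 transcripts (TPM, y axis) against day of RA (x axis) in wild-type (blue) and *Usb1* knockout cells (red), with each library as a point and bars for the mean ± SD of 2 or 3 libraries. *Ezh2*, *Eed*, *Suz12*, *Jarid2* and *Mtf2* descend, *Ezh1*, *Cbx2* and *Cbx8* climb, and *Cbx7* dips at day 1.

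In wild-type cells, 8 of the 9 transcripts passed the test at day 3 against day 0 (limma, Benjamini-Hochberg adjusted p under 0.05). *Ezh1*, *Cbx2* and *Cbx8* rose, and *Ezh2*, *Eed*, *Suz12*, *Jarid2* and *Mtf2* fell, while *Cbx7* did not pass. Over all genes tested, 52.1% passed in this comparison, 29.6% higher and 22.5% lower, so passing in itself did not set the 9 transcripts apart. The median log2 change was -0.80 for the 9 transcripts and 0.10 for all genes. In *Usb1* knockout cells, all 9 passed, against 51.5% of all genes (29.7% higher and 21.8% lower), with 3 up and 6 down and a median log2 change of -0.56. A change of at least 2-fold was seen for 6 of the 9 in wild-type cells, where 25.8% of all genes passed with such a change. In knockout cells it was seen for *Cbx8*, where 21.9% of all genes did. In these bulk samples, fewer cells of a type and less mRNA per cell cannot be told apart.

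The catalytic subunits of PRC2 moved in opposite directions during differentiation. *Ezh2* (chr6:47530139-47595341 in GRCm38, minus strand), which encodes the more active methyltransferase of dividing cells, stood at 104 and 98.5 TPM in the 2 wild-type libraries of day 0. It was at 84.1, 88.8 and 89.2 TPM at day 1 and 44.9, 48.2 and 45.3 TPM at day 3, so that each later group lay below the earlier one without overlap. The log2 change to day 1 was -0.21 ± 0.07 (SE, limma adjusted p = 0.0277), and -0.17 without replicate 1 of day 0. After quantile normalization the change to day 1 did not pass (limma adjusted p = 0.0676). The log2 change from day 0 to day 3 was -1.12 ± 0.07 (SE, limma adjusted p = 5.18e-09). In knockout cells, *Ezh2* was at 86.3, 88.7 and 89.8 TPM at day 0 and 88.6, 89.9 and 90.4 TPM at day 1, and these groups overlapped. It then fell to 59.6, 53.9 and 66.1 TPM at day 3, a log2 change of -0.56 ± 0.06 from day 0 (limma adjusted p = 2.74e-06). From day 0 to day 1 the change of *Ezh2* differed by 0.23 between the genotypes, which did not pass (limma adjusted p = 0.213).

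*Ezh1* (chr11:101191115-101226463, minus strand), the paralog known from resting and differentiated cells, was low at every day. In wild-type cells it was at 5.51 and 11.05 TPM at day 0, at 13.06, 13.04 and 11.5 TPM at day 1, and 16.7, 14.8 and 19.1 TPM at day 3. The low value at day 0 came from replicate 1, and the log2 change to day 3 was 1.01 ± 0.20 with that library (limma adjusted p = 0.000736) and 0.56 ± 0.17 without it (limma adjusted p = 0.0154). In knockout cells *Ezh1* was at 10.1, 8.98 and 8.58 TPM at day 0 and 12.5, 16.6 and 16.7 TPM at day 3, with no overlap. The log2 change there was 0.66 ± 0.18 (limma adjusted p = 0.00698), but it did not pass when the libraries were quantile normalized or scaled to an equal median.

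*Eed* (chr7:89954654-89980983, minus strand), which binds the trimethylated histone and stimulates the enzyme, fell mainly within the first day. Wild-type cells had 206 and 214 TPM at day 0, at 105, 112 and 109 TPM at day 1, and 80.3, 86.2 and 83.1 TPM at day 3. The log2 change was -0.94 ± 0.06 from day 0 to day 1 and -0.38 ± 0.06 from day 1 to day 3 (limma adjusted p = 4.28e-08 and 5.10e-05). In knockout cells *Eed* went from 177, 181 and 178 TPM at day 0 to 114, 122 and 115 TPM at day 1 and to 93.7, 84.4 and 98.8 TPM at day 3. These groups of libraries did not overlap either.

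*Suz12* (chr11:79993106-80034123, plus strand), which encodes the scaffold of the core complex, followed another course. It was at 164 and 168 TPM at day 0 and 154, 155 and 161 TPM at day 1 in wild-type cells, a log2 change of -0.08 ± 0.09 that did not pass (limma adjusted p = 0.496). When libraries were scaled to an equal median it was -0.27 and passed (limma adjusted p = 0.0188). At day 3 it was at 90.5, 93.5 and 100.6 TPM, a fall by 0.72 on the log2 scale from day 1 (limma adjusted p = 3.59e-06). In knockout cells *Suz12* was at 143 to 148 TPM at day 0, 136 to 140 TPM at day 1 and 85.8 to 115 TPM at day 3. The fall from day 1 to day 3 passed there too, with a log2 change of -0.50 (limma adjusted p = 0.000112). *Eed* and *Suz12* proteins act in the same complex, yet in wild-type cells the ratio of the day 1 mean to the day 0 mean was 0.518 for *Eed* and 0.943 for *Suz12*, a contrast that was not tested.

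*Jarid2* (chr13:44729474-44921643, plus strand), a cofactor that binds nucleosomes, fell in wild-type cells by about as much as *Mtf2*, the order of both turning without replicate 1 of day 0 (log2 changes of -1.45 and -1.49). Its level was 323 and 299 TPM at day 0, 217, 189 and 182 TPM at day 1 and 112, 104 and 111 TPM at day 3. The groups followed each other without overlap, and the log2 change from day 0 to day 3 was -1.51 ± 0.10 (limma adjusted p = 1.41e-08). In knockout cells *Jarid2* went from 260, 232 and 224 TPM at day 0 to 120, 147 and 138 TPM at day 3, which gave a log2 change of -0.82 ± 0.09 (limma adjusted p = 2.75e-06).

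*Mtf2* (chr5:108065674-108109004, plus strand) encodes a Polycomb-like protein that binds CpG-rich DNA. It was at 194 and 210 TPM at day 0, at 161, 163 and 169 TPM at day 1, and 67.7, 77.7 and 76.7 TPM at day 3 in wild-type cells. Most of its fall came after day 1, with log2 changes of -0.29 ± 0.09 before and -1.14 ± 0.08 after (limma adjusted p = 0.0146 and 1.78e-08). The former was -0.24 and did not pass without wild-type replicate 2 of day 0 (limma adjusted p = 0.0962). In knockout cells *Mtf2* was at 163 to 176 TPM at day 0 and 168 to 179 TPM at day 1, ranges that overlapped. At day 3 it had 78.0, 81.9 and 98.2 TPM, a log2 change of -1.02 ± 0.08 from day 1 (limma adjusted p = 5.77e-08). *Jarid2* and *Mtf2* therefore both fell, and the balance between these alternative cofactors is taken up with the ratios.

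The CBX subunits of PRC1 followed 3 different courses. *Cbx7* (chr15:79915807-79971119, minus strand), whose chromodomain reads the methylated histone, was at 107 and 121 TPM in wild-type cells at day 0. It dipped to 89.4, 85.5 and 79.5 TPM at day 1 and was at 108, 96.9 and 108 TPM at day 3, where it overlapped day 0. The log2 change was -0.42 ± 0.08 to day 1 and 0.29 ± 0.07 from day 1 to day 3 (limma adjusted p = 0.000652 and 0.00301). From day 0 to day 3 it was -0.13 ± 0.08, which did not pass (limma adjusted p = 0.192), but it was -0.31 and passed when libraries were scaled to an equal median (limma adjusted p = 0.000265). Knockout cells also had their lowest values at day 1, going from 116, 107 and 110 TPM through 77.3, 81.6 and 74.2 TPM to 86.3, 97.1 and 94.3 TPM. There the level at day 3 was below that at day 0, with a log2 change of -0.26 ± 0.07 (limma adjusted p = 0.00556). After scaling to an equal median the change from day 1 to day 3 was 0.05 in knockout cells and did not pass (limma adjusted p = 0.445), while it was 0.29 in wild-type cells (limma adjusted p = 0.000251).

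*Cbx2* (chr11:119022962-119031270, plus strand), the paralog known for compacting chromatin, rose at different times in the 2 genotypes. In wild-type cells it was at 26.3 TPM in both libraries at day 0, at 41.2, 36.4 and 36.2 TPM at day 1, and 46.7, 40.7 and 47.4 TPM at day 3. The log2 change to day 1 was 0.51 ± 0.09 (limma adjusted p = 0.00039). In knockout cells it was at 28.6, 29.7 and 31.8 TPM at day 0 and still at 28.9, 31.4 and 29.2 TPM at day 1, where the ranges overlapped. It was then at 50.7, 59.5 and 54.3 TPM at day 3, a log2 change of 0.85 ± 0.08 from day 1 (limma adjusted p = 5.20e-07).

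*Cbx8* (chr11:119036305-119040969, minus strand) had the largest proportional change of the 9 transcripts. Wild-type cells had 0 and 1.35 TPM at day 0, which correspond to 0 and 22 reads. In the former library 3 reads would be 0.171 TPM, a limit that takes in counting error alone. That library had fewer genes above 0 than any other, so the limit need not hold for it. At day 1 *Cbx8* was at 7.47, 7.45 and 8.33 TPM, and at day 3 at 16.9, 14.8 and 13.4 TPM, backed by 213 to 287 reads. The log2 change from day 0 to day 3 was 3.38 ± 0.27 (limma adjusted p = 8.07e-08), and 2.77 ± 0.21 when the library at 0 was left out (limma adjusted p = 1.40e-07). In knockout cells *Cbx8* was at 1.12, 1.14 and 1.71 TPM at day 0, at 2.89, 3.81 and 4.39 TPM at day 1, and 11.7, 11.4 and 9.61 TPM at day 3. The log2 change there was 2.36 ± 0.24 (limma adjusted p = 1.09e-06), and in neither genotype did any of the 3 days overlap. *Cbx2* and *Cbx8* both lie on chromosome 11.

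The sequences before the start sites of both EZH genes and of *Cbx7* and *Cbx8* are shown because these pairs changed differently with RA. RefSeq windows of 300 bases around the start sites (GRCm38.p6) were matched for 8 of the 9 genes, *Cbx2* being the exception. The RefSeq starts used for *Ezh2* and *Cbx7* lie inside the gene bounds given above, so their stretches do too. The 8 genes had 10 windows. The letters CCAAT, the core of the CCAAT box, occurred on either strand in 8 of these 10 windows, from 7 of the 8 genes. They occurred in 37.4% of the 32851 windows in the RefSeq table. Only stretches outside annotated exons are printed, and capitals mark CCAAT or its reverse complement ATTGG.
Ezh2, chr6:47595059-47595183, minus strand: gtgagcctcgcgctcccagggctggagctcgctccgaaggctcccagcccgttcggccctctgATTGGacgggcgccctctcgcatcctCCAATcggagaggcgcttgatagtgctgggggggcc
Ezh1, chr11:101226464-101226613, minus strand: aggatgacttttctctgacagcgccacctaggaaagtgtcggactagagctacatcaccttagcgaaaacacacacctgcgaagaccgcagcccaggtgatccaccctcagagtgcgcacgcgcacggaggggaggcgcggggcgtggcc
Cbx7, chr15:79932769-79932896, minus strand: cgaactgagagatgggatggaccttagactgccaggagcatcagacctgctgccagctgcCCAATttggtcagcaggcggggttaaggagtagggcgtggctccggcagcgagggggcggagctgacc
Cbx8, chr11:119040970-119041119, minus strand: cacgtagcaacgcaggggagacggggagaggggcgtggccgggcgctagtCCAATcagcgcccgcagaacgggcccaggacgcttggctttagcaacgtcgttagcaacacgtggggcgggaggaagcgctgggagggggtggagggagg
The stretch of *Ezh2* holds 2 matches, those of *Cbx7* and *Cbx8* hold 1 each, and that of *Ezh1* holds none, nor does its whole window. The letters TTCCCGC, a form of the E2F site, were found on either strand in the window of 1 of the 8 genes, *Suz12*, and in 4.60% of all windows. The windows of these 4 genes contain 23 to 33 CpG dinucleotides, against a median of 7 over all windows.

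Ratios within a library were used to follow subunit switches, since a ratio of TPM does not depend on the scaling between libraries. The ratio of *Cbx8* to *Cbx7*, taken on TPM + 1, does depend on it and on the added 1. The days were compared over both genotypes with an exact permutation test, two-sided, in which libraries were exchanged within a genotype. With 200 permutations, the smallest p this allows is 0.005, and p-values were adjusted over 12 tests. The log2 ratio of *Ezh1* to *Ezh2* was -3.70 ± 0.77 (SD, n = 2) in wild-type cells at day 0, -2.80 ± 0.13 at day 1 and -1.46 ± 0.23 at day 3 (SD, n = 3). *Ezh2* thus exceeded *Ezh1* 12.99-fold by geometric mean at day 0 and 2.75-fold at day 3. The 2 wild-type libraries of day 0 were far apart, at -4.24 in replicate 1 and -3.16 in replicate 2. In knockout cells the log2 ratio was -3.26 ± 0.15, -3.12 ± 0.09 and -1.98 ± 0.27 (SD, n = 3), and the excess of *Ezh2* went from 9.61-fold to 3.94-fold. The larger excess in wild-type cells at day 0 thus rests on replicate 1. Over both genotypes the ratio at day 3 exceeded that at day 0 by 1.76 on the log2 scale (exact permutation p = 0.005, adjusted p = 0.012). At day 1 the excess over day 0 was 0.52 (exact permutation p = 0.01, adjusted p = 0.0171), made up of 0.90 in wild-type and 0.14 in knockout cells. Without wild-type replicate 1 at day 0 the excess at day 1 was 0.25 and did not pass (exact permutation p = 0.0375, adjusted p = 0.0562), nor did it without any single wild-type library of day 1, at 0.49 to 0.56. The excess at day 3 passed without each library in turn. In no library did *Ezh1* exceed *Ezh2*, the highest ratio being 0.422.

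The ratio of *Cbx2* to *Cbx7* shifted in the same sense. Its log2 value was -2.11 ± 0.13 (SD, n = 2) at day 0, -1.16 ± 0.06 at day 1 and -1.22 ± 0.03 at day 3 (SD, n = 3) in wild-type cells. In wild-type cells most of the shift was thus present at day 1. In knockout cells it was -1.89 ± 0.12, -1.38 ± 0.03 and -0.76 ± 0.05 (SD, n = 3), with a further step between day 1 and day 3. Over both genotypes the difference from day 0 was 0.73 at day 1 and 1.01 at day 3 (exact permutation p = 0.005 and adjusted p = 0.012 for each). Still, *Cbx7* stayed 2.32-fold above *Cbx2* in wild-type cells and 1.69-fold above it in knockout cells at day 3.

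The ratio of *Cbx8* to *Cbx7* needed the added 1 because *Cbx8* was listed at 0 in 1 library. It changed most, from -6.23 ± 0.74 (SD, n = 2) to -2.72 ± 0.17 (SD, n = 3) on the log2 scale in wild-type cells and from -5.60 ± 0.22 to -2.98 ± 0.19 (SD, n = 3) in knockout cells between day 0 and day 3. The mean difference from day 0 was 2.23 at day 1 and 3.07 at day 3 (exact permutation p = 0.005 and adjusted p = 0.012 for each). The ratio of *Jarid2* to *Mtf2* behaved differently. At day 1 it was lower than at day 0 by 0.38 on the log2 scale, with a difference of -0.37 in wild-type and -0.38 in knockout cells (exact permutation p = 0.01, adjusted p = 0.0171). At day 3 it differed from day 0 by 0.05 on average (exact permutation p = 0.595), with single libraries between 0.42 and 0.84. For none of the 4 ratios did the difference between the genotypes over the 3 days pass this test (exact permutation p = 0.088 to 0.5525, 4000 permutations). For *Ezh1*:*Ezh2* this depended on wild-type replicate 1 at day 0, without which the ratio was lower in knockout cells by 0.32, with a coded difference of -0.32 (exact permutation p = 0.00562, adjusted p = 0.025), against -0.14 with it. This test averages the 3 days, and the differences had both signs. For *Ezh1*:*Ezh2* the knockout minus wild-type difference was 0.44, -0.32 and -0.52 at day 0, 1 and 3, and for *Cbx2*:*Cbx7* it was 0.23, -0.22 and 0.46. The positive sign of *Ezh1*:*Ezh2* at day 0 rests on wild-type replicate 1, whose log2 ratio was -4.24. Replicate 2 was at -3.16, above the knockout mean of -3.26. At day 3 the log2 *Cbx2*:*Cbx7* ratio was -0.80 to -0.71 in knockout and -1.25 to -1.19 in wild-type libraries, which did not overlap. For *Cbx8*:*Cbx7* the differences were 0.63, -0.79 and -0.26, and for *Jarid2*:*Mtf2* -0.14, -0.15 and 0.09. The single days were not tested.

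**Figure D2:**
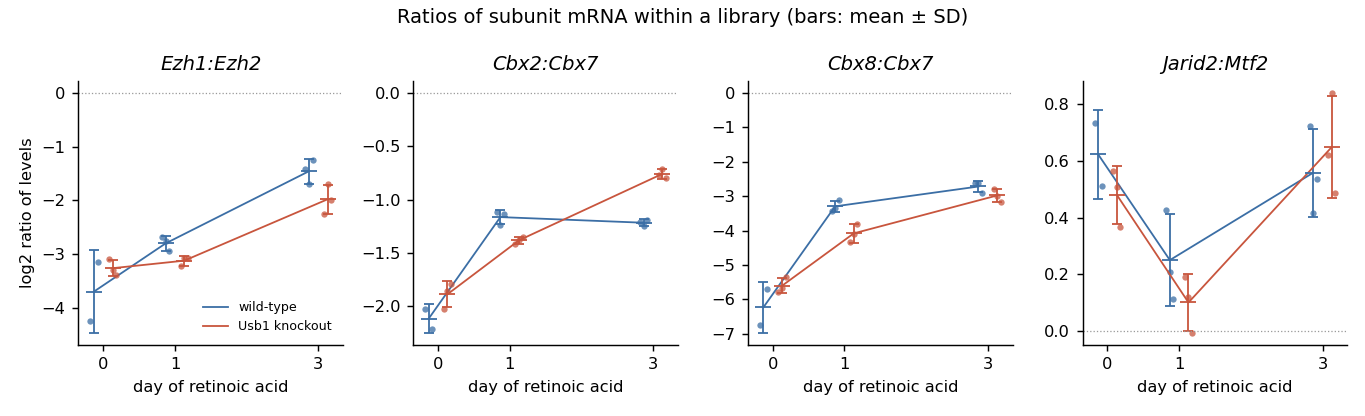
Log2 ratio of 2 subunit transcripts within each library (y axis) against day of RA (x axis) in wild-type (blue) and *Usb1* knockout cells (red), with points for libraries and bars for the mean ± SD. The ratios *Ezh1*:*Ezh2*, *Cbx2*:*Cbx7* and *Cbx8*:*Cbx7* (on TPM + 1) rise but stay below the dotted line at 0, where the 2 transcripts are equal, whereas *Jarid2*:*Mtf2* dips at day 1 and returns.

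Within paralog families, the share of the summed TPM showed the same shifts. *Ezh1* made up 7.55 ± 3.58% (SD, n = 2) of EZH transcripts in wild-type cells at day 0 and 26.8 ± 3.12% (SD, n = 3) at day 3, against 9.45 ± 0.894% and 20.3 ± 3.05% in knockout cells. At day 0 its share was 5.02% in wild-type replicate 1 and 10.1% in replicate 2. The EZH sum fell from 110 to 63.0 TPM in wild-type and from 97.5 to 75.1 TPM in knockout cells by mean. Of the summed TPM of *Cbx2*, *Cbx6*, *Cbx7* and *Cbx8*, *Cbx7* went from 60.5% to 53.6% in wild-type and from 57.9% to 48.5% in knockout cells and remained the largest share. *Cbx2* went from 13.995% to 23.1% and from 15.7% to 28.7%, and *Cbx8* from 0.342% to 7.76% and from 0.690% to 5.73%. *Cbx6* went from 25.1% to 15.5% in wild-type cells.

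*Mtf2* made up 87.7% of the Polycomb-like (PCL) transcripts at day 0 and 54.4% at day 3 in wild-type cells. *Phf1*, the paralog whose share rose, went from 7.82% to 42.6%, with a log2 change of 1.63 ± 0.11 (limma adjusted p = 1.36e-08). The PCL sum itself fell from 230 to 136 TPM by mean. *Mtf2* went from 202 to 74.0 TPM and *Phf1* from 18.0 to 58.0 TPM. In knockout cells *Phf1* went from 10.9% to 34.5%. *Phf19*, the remaining paralog, fell by 1.18 on the log2 scale in wild-type cells. A change of the leading paralog was seen in wild-type cells among the polyhomeotic (PHC) subunits, which are no members of the 9. *Phc1* made up 93.8% in wild-type cells at day 0 and 40.9% at day 3, while *Phc2* went from 3.27% to 51.1%. The PHC sum fell there from 325 to 138 TPM by mean. In knockout cells at day 3 *Phc1* made up 41.6%, 44.4% and 46.7% and *Phc2* 53.9%, 48.3% and 45.9%, so the order was turned in 2 of the 3 libraries. Among the PCGF subunits of PRC1, the leading paralog changed in knockout cells. There *Pcgf6* led *Pcgf2* in each library at day 0, at 39.6% against 35.0% by mean. At day 3 *Pcgf2* led *Pcgf6* in each library, at 29.5% against 26.2%. In wild-type cells *Pcgf2* had the largest share at both days, at 42.4% and 31.9%.

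**Figure D3:**
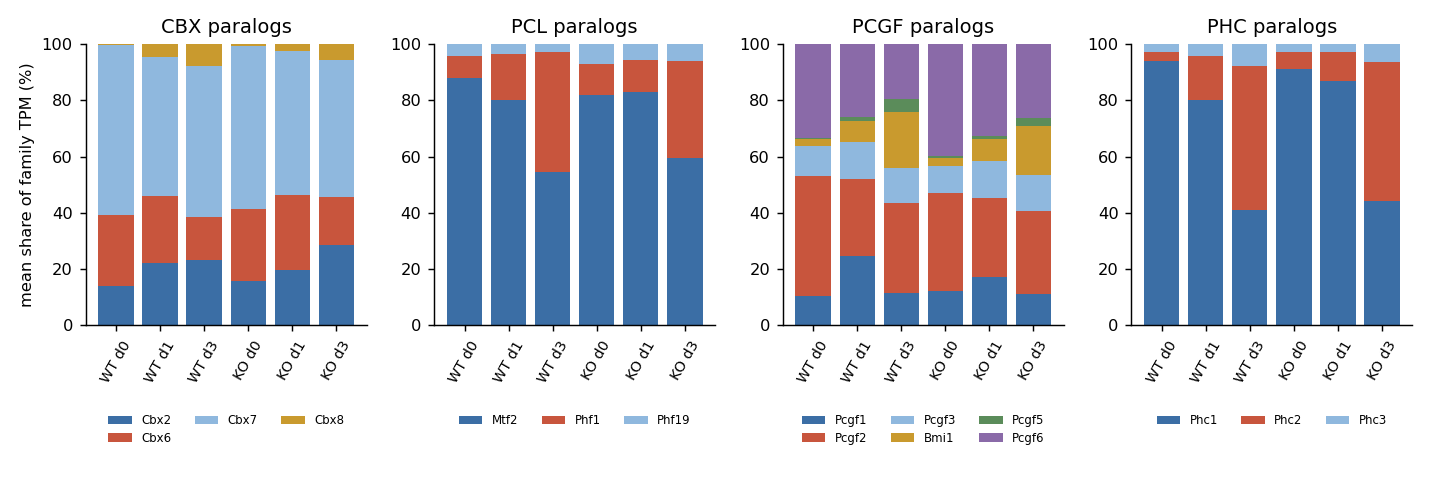
Mean share of the summed TPM of 4 paralog families (y axis, percent) in the 6 groups of genotype and day (x axis), stacked by gene, with sums taken over the genes shown. *Cbx7* and *Mtf2* keep the largest share at day 3, at 53.6% and 54.4% in wild-type cells, and *Phc2* overtakes *Phc1* there, at 51.1% against 40.9%.

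The knockout and wild-type libraries were compared at each day. At day 0, 2 of the 9 transcripts passed (limma adjusted p under 0.05), where 11.9% of all genes did. Both were lower in knockout cells. *Jarid2* was at 224 to 260 TPM against 299 and 323 TPM, a log2 difference of -0.38 ± 0.10 (limma adjusted p = 0.0296). *Eed* was at 177 to 181 TPM against 206 and 214 TPM, a log2 difference of -0.23 ± 0.06 (limma adjusted p = 0.0287). *Ezh2*, *Suz12* and *Mtf2* also did not overlap between the genotypes and had log2 differences of -0.20, -0.19 and -0.24, and *Cbx2* did not overlap in the other direction, with 0.18. None of these 4 passed, and 36.6% of all genes had ranges that did not overlap. Without wild-type replicate 1, neither *Jarid2* nor *Eed* passed (limma adjusted p = 0.185 for *Jarid2* and 0.0826 for *Eed*). The call of *Eed* was also lost without each of the other 4 libraries of day 0, and that of *Jarid2* without knockout replicate 2 or 3, with log2 differences between -0.37 and -0.20 (limma adjusted p up to 0.185). With either a quantile normalization or scaling to an equal median, *Jarid2* passed as lower and *Cbx2* as higher, in place of 2 lower.

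At day 1, again 2 of the 9 transcripts passed, where 17.3% of all genes did. *Cbx2* was at 28.9 to 31.4 TPM in knockout cells against 36.2 to 41.2 TPM in wild-type cells, a log2 difference of -0.33 ± 0.08 (limma adjusted p = 0.0103). *Cbx8* was at 2.89 to 4.39 TPM against 7.45 to 8.33 TPM, a log2 difference of -0.91 ± 0.25 (limma adjusted p = 0.0203). The median of all genes was itself lower in knockout cells by 0.13 on the log2 scale at day 1, a shift over 0.1 that was also seen for wild-type cells at day 1 against day 0, where it was 0.17. When libraries were scaled to an equal median, neither *Cbx2* nor *Cbx8* passed, and *Eed* and *Mtf2* passed as higher instead. None of the 9 passed after quantile normalization, although both *Cbx* transcripts kept their sign. Without wild-type replicate 1 of day 1, *Cbx2* was at -0.27 (limma adjusted p = 0.0583). *Cbx8* did not pass without that library, wild-type replicate 3 or knockout replicate 1, at -0.93 to -0.78 (limma adjusted p = 0.0568 to 0.08).

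At day 3, 2 of the 9 transcripts passed, where 7.52% of all genes did, and both were higher in knockout cells. *Ezh2* was at 53.9 to 66.1 TPM against 44.9 to 48.2 TPM, a log2 difference of 0.36 ± 0.06 (limma adjusted p = 0.0024). *Cbx2* was at 50.7 to 59.5 TPM against 40.7 to 47.4 TPM, a log2 difference of 0.28 ± 0.08 (limma adjusted p = 0.0445). *Ezh2* passed under both other scalings and lost its call when the fit was restricted to the 6 libraries of day 3. The call of *Cbx2* was lost under 17 of 25 alternatives, 13 of which left out 1 library, with log2 differences of 0.21 to 0.32 (limma adjusted p = 0.0518 to 0.182). *Jarid2* and *Mtf2* did not overlap between the genotypes either, with log2 differences of 0.30 and 0.21 that did not pass (limma adjusted p = 0.0685 and 0.132). Nor did *Cbx8*, which was lower in knockout cells with a log2 difference of -0.43 that did not pass (limma adjusted p = 0.387), and 22.0% of all genes had ranges that did not overlap. *Jarid2* passed as higher under 4 of 25 alternatives. Among them were quantile normalization and scaling to an equal median, with 0.32 in both (limma adjusted p = 0.0368 and 0.0117).

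**Figure D4:**
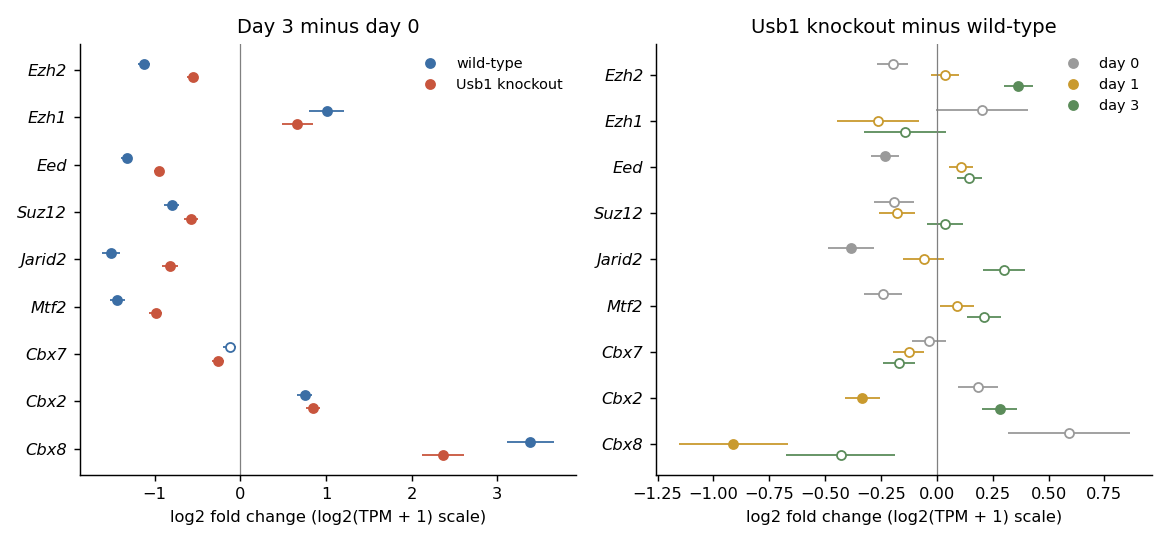
Log2 fold change on the log2(TPM + 1) scale (x axis) of the 9 transcripts, on the left for day 3 against day 0 in wild-type (blue) and *Usb1* knockout cells (red) and on the right for the difference between knockout and wild-type cells by day, with bars for the SE and filled points where the adjusted p is under 0.05. The 5 PRC2 transcripts that fell lie closer to 0 in knockout cells, for example *Jarid2* at -0.82 against -1.51.

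Whether the response to RA itself differed was tested with an interaction term, the change in knockout cells minus that in wild-type cells. From day 0 to day 3 the difference passed for 4 of the 9 transcripts, where 6.15% of all genes passed. All 4 were PRC2 genes that fell in both genotypes but less in knockout cells. The difference was 0.68 ± 0.14 for *Jarid2*, 0.56 ± 0.09 for *Ezh2*, 0.45 ± 0.12 for *Mtf2* and 0.38 ± 0.08 for *Eed* (limma adjusted p = 0.0115, 0.00344, 0.0347 and 0.0181). For *Suz12* it was 0.23 ± 0.12, which did not pass (limma adjusted p = 0.28). Without wild-type replicate 1 at day 0, the differences were 0.63, 0.52, 0.50 and 0.40, and those of *Jarid2* and *Mtf2* no longer passed (limma adjusted p = 0.0549 and 0.0609). The call of *Mtf2* was also lost without wild-type replicate 2 of day 0, wild-type replicate 1 of day 3 or any 1 of the 3 knockout libraries of day 0, with differences of 0.39 to 0.50. With scaling to an equal median, *Jarid2* passed at 0.59, whereas *Ezh2*, *Mtf2* and *Eed*, at 0.47, 0.36 and 0.29, did not (limma adjusted p = 0.0702, 0.0664 and 0.208). The comparison of genotypes at day 0 and at day 3 shares its libraries with this test. The sums of pluripotent, endoderm, mesoderm, neuroectoderm and feeder markers given above also differed between the genotypes at day 3. Their part in these differences was not tested.

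From day 0 to day 1 the response differed for 2 of the 9 transcripts, where 2.23% of all genes passed. The rise of *Cbx2* was lower in knockout cells by 0.52 ± 0.12 on the log2 scale and that of *Cbx8* by 1.501 ± 0.37 (limma adjusted p = 0.0374 and 0.0499), with coded values of -0.52 and -1.501. The latter rests on the wild-type library listed at 0, without which it was -0.88 ± 0.26 (limma adjusted p = 0.138). Without that library the value of *Cbx2* was -0.52 as well, but it did not pass (limma adjusted p = 0.11). The median over all genes was -0.12 in this comparison, and after scaling to an equal median the differences were -0.41 for *Cbx2* and -1.40 for *Cbx8*, neither of which passed (limma adjusted p = 0.0854 and 0.0833). Leaving out 1 library ended the call of *Cbx2* in 11 cases, at -0.55 to -0.46, and that of *Cbx8* in 16 cases, at -1.61 to -0.88. From day 1 to day 3, the response differed for 2 of the 9, where 7.61% of all genes passed and the median was 0.13. *Cbx2* rose more in knockout cells by 0.62 ± 0.11 (limma adjusted p = 0.00405), a call kept under all 25 alternatives. *Ezh2* fell less by 0.33 ± 0.09 (limma adjusted p = 0.0384), a call lost under 16 of them, 11 of which left out 1 library, at 0.26 to 0.35. The summed level of 4 genes induced by RA at day 1 was 565 to 606 TPM in knockout and 1043 to 1110 TPM in wild-type cells. At day 0, before RA, this sum was already lower in knockout cells, at 13.96 to 14.75 TPM against 29.8 to 30.9 TPM. In the response from day 0 to day 1, 1 of the 4 genes passed as higher in knockout cells and 0 as lower. The part of these genes in the later rise of *Cbx2* was not tested.

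The other genes of the pathway were taken from general lists. Of 8 other PRC2 genes, 3 rose and 3 fell from day 0 to day 3 in wild-type cells, with a median log2 change of -0.01. Over all genes tested, 29.6% passed as higher and 22.5% as lower in this comparison. *Rbbp7*, a histone-binding subunit, rose from 306 ± 8.71 (SD, n = 2) to 1123 ± 28.7 TPM (SD, n = 3). *Epop*, a cofactor found in embryonic stem cells, fell from 999.3 ± 106 TPM to 443 ± 31.7 TPM. *Ezhip*, an inhibitor of PRC2, had a transient peak at day 1, at 1.95 ± 1.01, 11.6 ± 1.25 and 3.87 ± 0.526 TPM on the 3 days, and its call at day 3 against day 0 was lost without wild-type replicate 1 at day 0 (limma adjusted p = 0.191). In knockout cells *Ezhip* peaked as well, at 2.02 ± 0.263, 9.37 ± 1.499 and 3.17 ± 0.857 TPM (SD, n = 3).

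Of 9 other genes of canonical PRC1, 4 rose and 3 fell over the same time in wild-type cells, with a median of 0.21. Among all genes tested 29.6% rose and 22.5% fell, shares that also apply to the next list. *Bmi1*, a PCGF subunit, rose from 4.92 ± 1.89 (SD, n = 2) to 49.6 ± 3.28 TPM (SD, n = 3), a log2 change of 3.13 (limma adjusted p = 1.18e-09). *Pcgf2*, its closest paralog, was at 91.7 ± 5.82 and 80.0 ± 4.45 TPM, a change that did not pass (limma adjusted p = 0.0983). *Phc1* fell from 305 ± 16.1 to 56.4 ± 5.42 TPM and *Phc2* rose from 10.9 ± 7.58 to 70.3 ± 1.03 TPM. Of 14 genes of variant PRC1, which lacks CBX proteins, 9 rose and 4 fell, with a median of 0.47. *Yaf2* rose by 2.60 and *Pcgf5* by 2.58 on the log2 scale, and *Bcor* by 1.04, whereas *Rybp*, the paralog of *Yaf2*, fell by 0.98 after a transient rise. The 2 wild-type libraries of day 0 were far apart for *Yaf2*, at 6.93 and 13.4 TPM, and for *Pcgf5*, at 0.597 and 1.88 TPM. The lowest wild-type values at day 3 were 61.8 and 11.3 TPM. *Pcgf6* fell by 0.54 and *Pcgf3* rose by 0.37. *Pcgf1* peaked at day 1, at 22.7 ± 0.378, 64.6 ± 2.53 and 29.1 ± 2.32 TPM in wild-type cells, and the peak was lower in knockout cells, at 38.7 ± 3.05 TPM.

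Of 7 genes for enzymes that remove the marks of either complex, 1 rose and 2 fell from day 0 to day 3 in wild-type cells, with a median of -0.04. Among all genes tested 29.6% rose and 22.5% fell. *Asxl3*, a cofactor of the H2A deubiquitinase, was the one that rose, from 0.814 and 0.903 TPM at day 0 to 3.09 to 4.21 TPM at day 3. *Uty*, the Y-linked paralog of the demethylase gene *Kdm6a*, is the gene of this list that was at 0 in the knockout libraries. Of 20 developmental regulators known as Polycomb targets in embryonic stem cells, 17 were tested. In wild-type cells 14 rose and 0 fell by day 3, with a median log2 change of 4.96, and in knockout cells 15 rose and 0 fell, with a median of 3.68. Of all genes tested in knockout cells, 29.7% rose and 21.8% fell. With the 4 genes that were at 0 in both day 0 libraries of wild-type cells set to the bound that 3 reads per library give, the wild-type median was 5.07, and with 1 such gene in knockout cells theirs was again 3.68. The 4 genes with the largest change in any comparison of days or genotypes were *Foxa2*, *Hoxa5*, *Hand1* and *Cdkn2a*. *Foxa2*, an endoderm regulator, was at 172 to 182 TPM in wild-type and 103 to 127 TPM in knockout cells at day 3, from at most 0.476 TPM at day 0. *Hoxa5* was listed at 0 in both wild-type libraries at day 0 and was at 95.0 to 106 TPM at day 3. *Hand1*, also listed at 0 in both, was at 25.9 to 37.1 TPM in wild-type and 59.2 to 69.5 TPM in knockout cells at day 3. *Cdkn2a*, a cell cycle inhibitor gene, was at 0 and 7.32 TPM in wild-type cells at day 0, the former in replicate 1, and at 118 to 140 TPM at day 3. These genes are themselves markers or targets of differentiation, and the histone marks at them were not measured here.

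**Figure D5:**
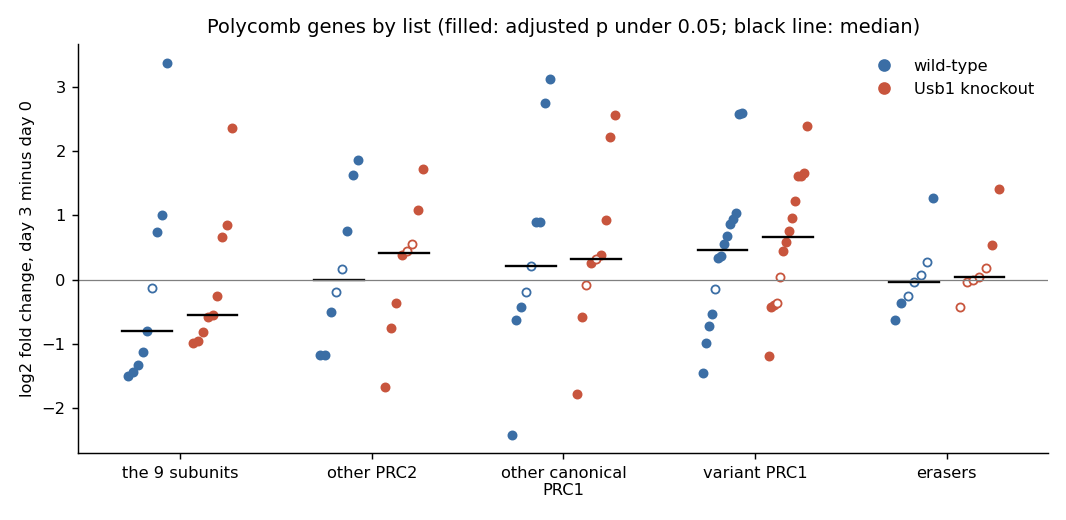
Log2 fold change of day 3 against day 0 (y axis) for the 9 subunits and for 4 lists of other Polycomb genes (x axis), with a point for each gene in wild-type (blue) and *Usb1* knockout cells (red), filled where the adjusted p is under 0.05, and a black line at the median. The median of the 9 subunits is -0.80 in wild-type and -0.56 in knockout cells, and that of canonical PRC1 is 0.21 and 0.33.

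Genes with a course like that of each transcript were named by Pearson's r of log2(TPM + 1) over the 17 libraries, among 10781 genes, as a description, since all points share the same days and libraries. For *Ezh2* these included *Cbx1* and *Orc2* (r = 0.989 and 0.988), a heterochromatin protein gene and a subunit of the replication origin complex. For *Suz12* they included *Hells* and *Fanci* (r = 0.986 and 0.984), and for *Mtf2* *Cobl*, *Msh6* and *Uba2* (r = 0.994, 0.993 and 0.989). For *Eed* they were *Wdr43*, *Pnp* and *Riok2* (r = 0.992, 0.988 and 0.987), and for *Jarid2* *Ndc1*, *Prmt5* and *Tenm4* (r = 0.991, 0.983 and 0.982). The genes most like *Ezh1* were *Atat1*, *Slc15a2* and *Mss51* (r = 0.973, 0.960 and 0.959), those most like *Cbx2* were *Hip1*, *Zfp664* and *Ror2* (r = 0.968, 0.967 and 0.961), and those most like *Cbx7* were *Parvb*, *Chmp4c* and *Plec* (r = 0.963, 0.958 and 0.957). For *Cbx8* they included *Tsc22d4* and *Ypel3* (r = 0.989 and 0.985). No member of the 9 was among the 3 genes most like another.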

How the data were processed

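RNA from wild-type and *Usb1* knockout R1/E cells was sequenced in 17 libraries of 6 groups. Per the labels, the submitters' processing notes name HISAT2 2.1.0, StringTie 1.3.6 and GRCm38.p6, with NEBNext Ultra libraries. The authors deposited TPM in 1 table of all libraries, made from the reads counted on each gene and its length. For differential expression the authors used DESeq2, but TPM are not counts, so log2(TPM + 1), a scale that understates changes of low genes, was analysed with limma 3.58.1 under R 4.3.3. A gene entered the fit if 2 or more libraries reached 1 TPM, which left 21871 genes. The fit had 6 group means, shared 1 estimate of the spread over the 17 libraries, used a variance trend, and each comparison had its own Benjamini-Hochberg adjustment over all genes tested. A gene passed at an adjusted p under 0.05. Comparisons were of days within genotype, of genotypes within day, and of the responses (knockout change minus wild-type change), and several share libraries. The replicates are described as independent biological replicas.

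Reads were recovered from TPM with exon lengths of GENCODE M21 (54495 of 54532 identifiers matched), giving whole reads within 0.01 for 95.9% to 96.7% of genes above 0. They are used for depth, for the limit that 0 reads allow (3 reads, counting error only), and for voom as an alternative. Ratios of transcripts were tested by exact permutation, two-sided. *Ezhip* was found under its older symbol. On simulated data, 91.5% of 200 genes changed by a log2 of 2 were recovered for knockout against wild-type cells at day 3 (21871 genes). The subunit transcripts differed far less between the genotypes at that day, the log2 difference largest in size being -0.43 for *Cbx8*. The recovery of differences as small as theirs was not tested, so this rate cannot tell how many would be missed. Tables were made with pandas 2.3.3 and numpy 2.4.6 and figures with matplotlib 3.10.9, all under Python 3.11.15.

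The 9 genes and the other lists were chosen with earlier results of these data known. Genes named besides the 9 are their CBX, PCGF and PCL paralogs, whatever their change, up to 4 genes of each other list with the largest change among those that passed with at least 2-fold in any comparison of days or genotypes, and the 3 genes most like each transcript among protein-coding genes with a mean TPM of at least 5. A few genes that this rule names are not reported here. *Usb1* checks the labels, and *Ddx3y* and *Eif2s3y* were added after their values were seen. The main fit did not pair libraries by replicate number. Deviations from the group mean correlated at -0.0052 on average over 40 pairs of libraries with the same number and at 0.0026 over 80 pairs with different numbers. These averages cannot settle whether the libraries were paired, since the deviations of a group are taken from its own mean of few libraries. Alternatives were another pseudocount (0.1), no filter or a filter at 5 TPM, quantile normalization, scaling to an equal median, the libraries of the comparison alone, a replicate block, voom, and leaving out each library. Splicing and the other data of the study were not analysed here.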

Additional observations from a re-analysis of the deposited data

Results flagged for a closer look

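These results were picked out because the response to RA differed between the genotypes by the interaction term of limma (adjusted p under 0.05), given as the log2 change in knockout cells minus that in wild-type cells. Among the 9 subunit transcripts, the difference from day 0 to day 3 was 0.56 for *Ezh2*, 0.38 for *Eed*, 0.68 for *Jarid2* and 0.45 for *Mtf2*, all of which fell in both genotypes. From day 0 to day 1 it was -0.52 for *Cbx2* and -1.501 for *Cbx8*, and from day 1 to day 3 it was 0.62 for *Cbx2* and 0.33 for *Ezh2*. Of these 8 calls, 1 was kept under all 25 alternatives, that of *Cbx2* from day 1 to day 3.

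Among the other Polycomb genes that are named, *Pcgf1* had a difference of -1.01 from day 0 to day 1 and of 0.71 from day 1 to day 3. *Phf1*, the paralog of *Mtf2*, had -0.79 from day 0 to day 1 and -0.54 from day 0 to day 3. *Phc1* had 0.59 and 0.64 over the same intervals. *Rybp* had 0.60 from day 0 to day 3 and 0.57 from day 1 to day 3, *Bcor* had 0.64 and *Epop* had -0.54 from day 1 to day 3. Among the developmental regulators, *Hoxa5* had -0.67 and *Foxa2* had -0.89 from day 0 to day 1, and *Hand1* had 1.26 from day 1 to day 3. Without wild-type replicate 1 at day 0, the values of *Phf1* were -0.67 and -0.41, that of *Phc1* from day 0 to day 1 was 0.64, and those of *Hoxa5* and *Foxa2* were -0.67 and -0.61, and none of these 5 passed (limma adjusted p = 0.0793, 0.194, 0.092, 0.0794 and 0.155).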

How the results depend on the processing

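Of 60 calls of the 9 transcripts, 36 were kept under all 25 alternatives. These were 35 of 46 calls between days, 0 of 6 between genotypes and 1 of 8 between responses. No value that passed changed its sign.

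At day 0, 2 transcripts passed between the genotypes, against 0 with the libraries of the comparison alone and 1 with voom. At day 1 it was 1 with a pseudocount of 0.1, 0 after quantile normalization and 4 with voom. At day 3 it was 1 with a pseudocount of 0.1, 1 without a filter and 0 with the libraries of the comparison alone. For the response from day 0 to day 1, 1 passed with a pseudocount of 0.1, without a filter or after quantile normalization, 0 after scaling to an equal median and 4 with voom. From day 0 to day 3, 1 passed after scaling to an equal median and 2 with the libraries of the comparison alone, and from day 1 to day 3, 1 passed after either scaling, with those libraries alone or with voom. The causes were not tested.

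With a replicate block, 1 passed between the genotypes at day 3, 0 for the response from day 0 to day 1 and 1 from day 1 to day 3. With replicate pairing, the ratio differences at day 1 and day 3 were 0.47 and 1.63 for *Ezh1*:*Ezh2*, 0.68 and 1.03 for *Cbx2*:*Cbx7*, 2.05 and 3.02 for *Cbx8*:*Cbx7*, and -0.35 at day 1 for *Jarid2*:*Mtf2*. The smallest exact p of such pairs is 0.0625, so none could pass.

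Leaving out each library, 0 to 5, 0 to 3 and 1 to 3 transcripts passed between the genotypes at day 0, 1 and 3, and 0 to 4, 2 to 5 and 1 to 3 for the responses from day 0 to 1, 0 to 3 and 1 to 3. Between days in wild-type cells 6 to 9 passed, and in knockout cells 3 to 9. The *Ezh1*:*Ezh2* difference at day 1 ranged from 0.25 to 0.79 and that between genotypes from -0.32 to 0.0447. Low read numbers limit *Cbx8* at day 0, as does the wild-type library listed at 0, which had few genes of low read number.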
